A study of Apis mellifera with 24 samples.

Results

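Of the 15313 annotated genes of the honey bee, Apis mellifera, 72 were examined here because a larger share of all antisense gene counts fell on them in semen than in ovaries, eggs, testes or spermatheca. The members were selected on the measured antisense counts. Each tissue column was divided by its sum, genes with at least 10 semen counts and their highest share in semen were taken, and a fixed set of separately described genes was omitted. Of the 103 genes with at least 10 semen counts, 77 (74.8%) had their highest share in semen and 5 of these were omitted, so that the limit of 150 genes was not reached. The antisense values of the 72 genes therefore describe how they were chosen and support nothing further. Own sense counts, overlaps with other genes, transposable elements, length and position were not used in the share and count rule. The fixed omissions were made separately and may depend on them.

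Small RNA was sequenced from 24 libraries of reproductive tissue, and reads of 26 to 31 nt, the length range of piRNAs, were counted on genes and transposable elements (TEs). Semen came from adult drones (2 libraries), and testes from drone pupae of 1 colony at 24, 72 and 144 h after pupation (8 libraries). Ovaries and spermatheca, the sperm storage organ of the queen, came from adult mated laying queens (3 libraries each), so that the spermatheca column can hold RNA of stored sperm and of queen tissue. Eggs under a day old (8 libraries) were pooled over fertilised and unfertilised eggs of mated queens and eggs that virgin queens laid in worker and drone cells. The virgin queens had been narcotised with carbon dioxide to induce laying, which the study names as a possible confounder. The counts came as 1 pooled column per tissue, so no test between tissues was possible and the intervals given are 95% counting intervals. PCR copies are not independent molecules, so these intervals cover counting error only, and fewer cells of a type and less small RNA per cell cannot be told apart.

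Semen was by far the shallowest column, where depth means the sum of counts in a column and not the number of reads sequenced. The antisense gene counts summed to 32551 in semen against 392409 to 5045727 in the 4 other tissues. By this sum the semen column was 12.1 to 155 times shallower, while the TMM scales of the other columns were 1.95 to 2.79 times that of semen. The 5 omitted genes that met the rule held 77.5% of the semen antisense counts. The semen libraries shared a sequencing flow cell with 4 of the egg libraries only, and tissue and sequencing run cannot be told apart.

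piRNAs are small RNAs that guide PIWI proteins to complementary transcripts, and in animal germ lines they are best known for silencing TEs. They are cut from long single-stranded precursors, and a target cut by a guided PIWI protein can itself become a new piRNA of the opposite strand. A small RNA antisense to a gene can pair with that gene's transcript, but the same read is a sense read wherever a gene on the other strand covers the same bases. Counts antisense to a gene can therefore come from the gene's own antisense transcripts, from an overlapping neighbour or from a TE inserted in an intron. Reads were taken by length, which does not show that they are piRNAs. In semen and testes the study found a smaller part of such reads on piRNA clusters, the genomic sources of piRNAs, than in ovaries, eggs and spermatheca. It proposes that many of the reads in semen and testes were not true piRNAs or arose by another route.

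The 72 genes held 2868 semen antisense counts, which was 8.81% (Wilson interval, 8.51 to 9.12) of all antisense gene counts in semen. In the other tissues they held 1615 counts in ovaries, 1806 in eggs, 8243 in testes and 8223 in spermatheca. These totals were 0.0494%, 0.0358%, 2.10% and 1.49% of the antisense counts of those tissues. A high share in semen was thus not a high count: the median member had 17.5 counts in semen, 6.5 in ovaries, 9 in eggs, 19 in testes and 21.5 in spermatheca. Taken as unscaled counts, semen was above every other tissue for 19 of the 72 genes, against 21.4% of all genes with at least 10 semen counts. The highest count lay in spermatheca for 27 members, in testes for 17 and in eggs for 6, never in ovaries, and it was shared between tissues for the rest.

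**Figure D1:**
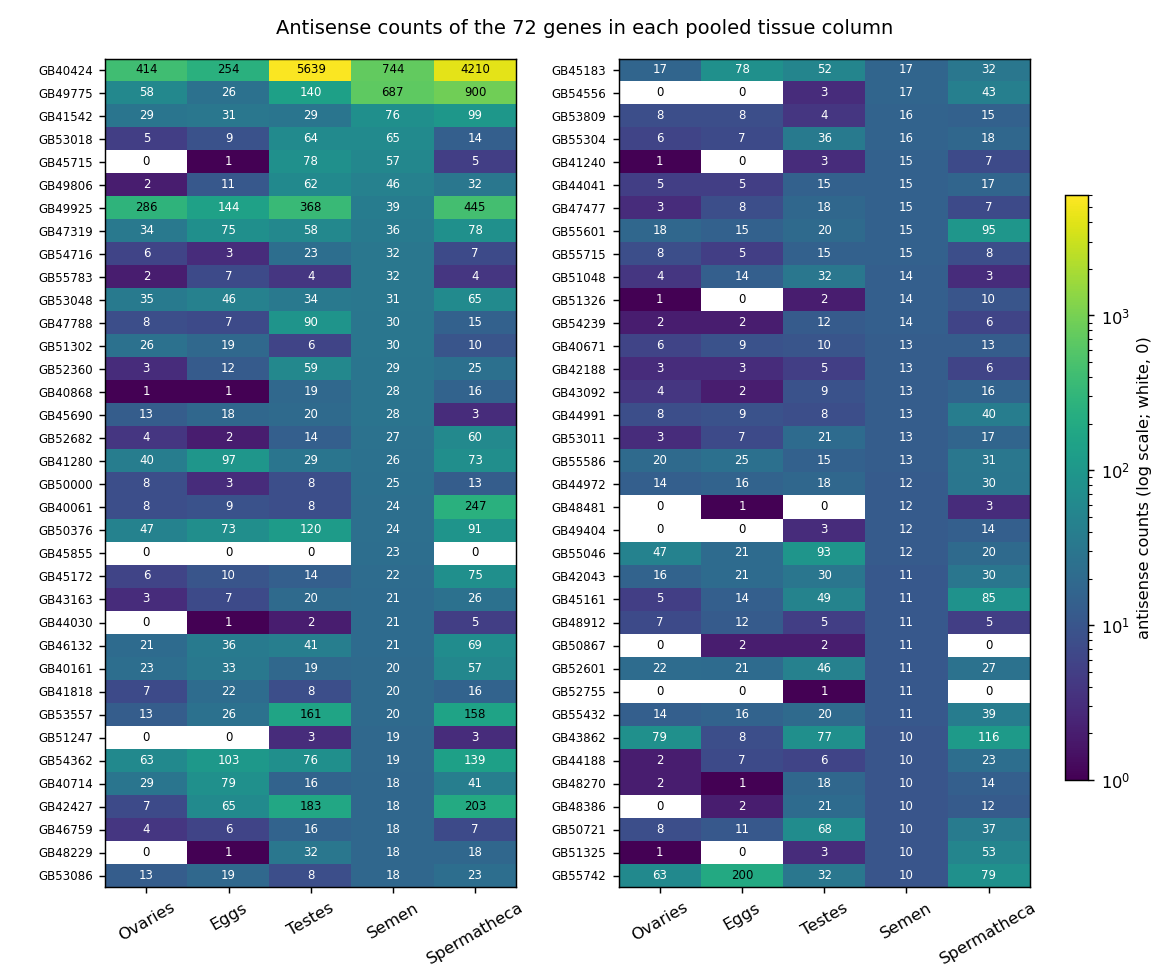
Antisense counts of each of the 72 genes (rows, ordered by semen count) in the 5 pooled tissue columns, with colour on a log scale and 0 left white. The semen column runs from 744 down to 10, and GB40424 and GB49775 stand above the other genes.

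The semen share exceeded that of the next tissue by a median of 7.48 times, with a range from 1.19 to 96.4. The next tissue was testes for 39 genes and spermatheca for 33, the columns that were next to semen in depth. The ratio was over 2 for 64 genes, over 10 for 31 and over 20 for 14, and its counting interval included 1 for 7 genes. Folds and ratios were computed with counts under 3 in the other tissue set to 3, and such values are given as lower bounds.

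**Figure D2:**
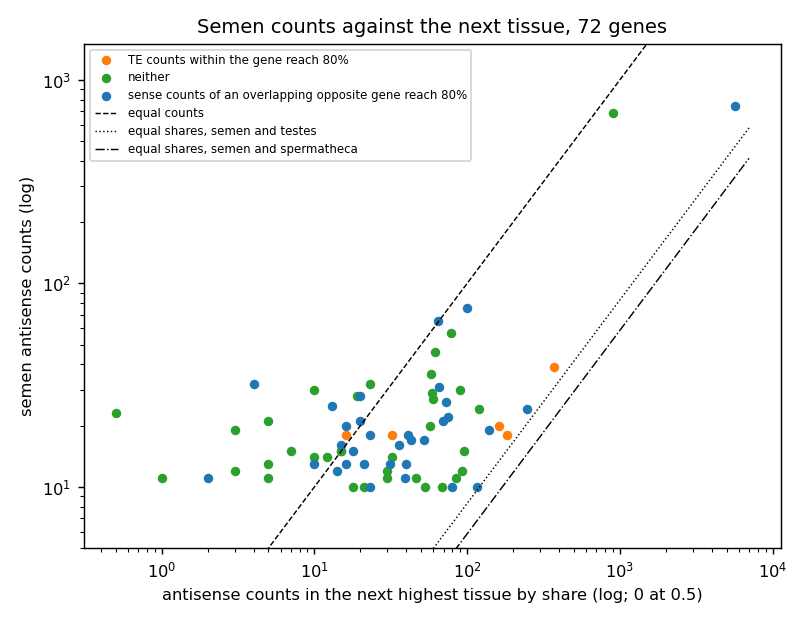
Semen antisense counts of the 72 genes against counts in the tissue with the next highest share, both on log scales, coloured by whether sense counts of overlapping genes or counts of TEs could hold at least 80% of the semen counts. Most points lie below the line of equal counts and above the lines of equal shares. The semen column sum was 12.1 times smaller than that of testes and 17 times smaller than that of spermatheca.

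How many of these genes still led in semen depended on how the columns were scaled. With TMM factors, 45 of the 72 were highest in semen, with DESeq2 size factors 54, and with unscaled counts, ties included, 21. Of the 103 genes with at least 10 semen counts, 49 (47.6%), 58 (56.3%) and 24 (23.3%) were. Percentages in brackets after member numbers below are likewise those of the 103 genes, and not of the members. The members make up most of those 103 genes, so these shares are printed for scale and nothing was read from them. Dividing by the column sums placed semen over 5-fold above ovaries and above eggs for all 72 genes (86.4% of the 103 for each), above testes for 57 (61.2%) and above spermatheca for 57 (60.2%). Over all genes with at least 5 counts in either tissue, the percentages were 43.7 against ovaries, 44.9 against eggs, 13.2 against testes and 18.8 against spermatheca. With TMM the member counts, with the percentages of the 103, were 41 (44.7%), 37 (41.7%), 23 (28.2%) and 19 (21.4%) in this tissue order, and with DESeq2 size factors 41 (44.7%), 36 (40.8%), 30 (35.0%) and 24 (26.2%). With unscaled counts they were 15 (19.4%), 12 (15.5%), 5 (9.71%) and 5 (7.77%). Semen was over 5-fold above all 4 other tissues for 52 genes with column sums (53.4%), 12 with DESeq2 size factors (14.6%), 9 with TMM (11.7%) and 2 with unscaled counts (4.85%). With unscaled counts, genes of 15 or fewer semen counts could not pass, since counts under 3 were set to 3.

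**Figure D3:**
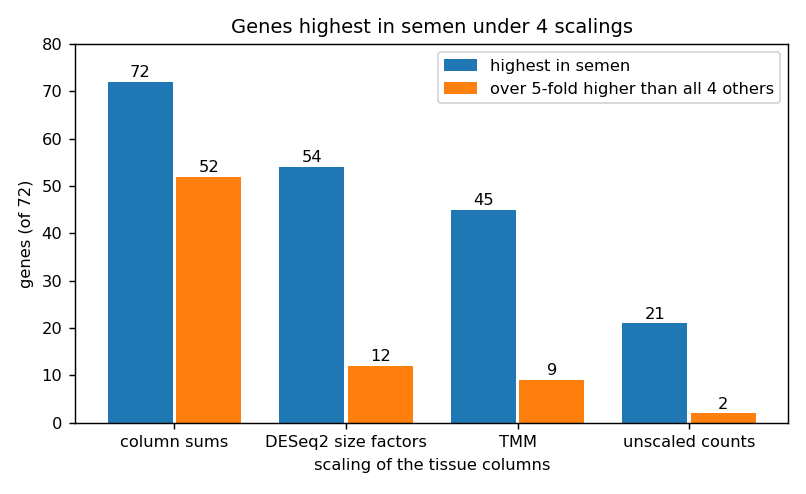
Number of the 72 genes that were highest in semen, and number over 5-fold higher in semen than in each of the 4 other tissues, under 4 scalings of the tissue columns. Both numbers fall from column sums (72 and 52) to unscaled counts (21 and 2).

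GB40424 and GB49775 together held 1431 of the members' semen counts (49.9%), and their profiles were unlike each other. GB40424 lies on chromosome 8 (2392038 to 2396437, minus strand, 4400 bp; all positions are those of the files, build Amel 4.5). Its antisense counts were 414 in ovaries, 254 in eggs, 5639 in testes, 744 in semen and 4210 in spermatheca. It was the most abundant member in every column by count, and its semen share was only 1.59 times that of testes (1.47 to 1.72). With TMM scaling its semen value was 0.368 times that of testes, so the direction turned. Its own strand carried 0 to 3 counts per tissue. The gene GB40461 on the plus strand overlaps it by 1648 bp, and its sense counts were 517, 295, 6427, 1089 and 4931 in the same tissue order, more than the antisense counts of GB40424 in all 5 tissues.

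GB49775 lies on chromosome 2 (10681462 to 10688819, minus strand, 7358 bp). Its antisense counts were 58 in ovaries, 26 in eggs, 140 in testes, 687 in semen and 900 in spermatheca. Semen and spermatheca thus stood apart from the other columns, and the semen share was 13.0 times that of spermatheca (11.7 to 14.4). No sense count fell on GB49775 in any tissue, no TE lies wholly within it, and the overlapping gene GB49790 had 8 sense counts in semen. The annotated opposite gene could thus hold few of its semen counts.

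Below these, only 3 members had 50 or more semen counts. GB41542, of 142968 bp on chromosome 13, had 29 antisense counts in ovaries, 31 in eggs, 29 in testes, 76 in semen and 99 in spermatheca. Of the 4 genes inside it on the other strand, GB41547 had 74 sense counts in semen and 76 in spermatheca. In ovaries, eggs and testes GB41547 had 10 to 12 sense counts, so that semen and spermatheca were the high columns for both genes.

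GB53018, of 3180 bp on chromosome 4, had 5, 9, 64, 65 and 14 antisense counts in ovaries, eggs, testes, semen and spermatheca. GB52999 on the other strand, which covers 2016 bp of it, had 37, 46, 468, 886 and 198 sense counts. Testes and semen were the 2 highest columns for both genes. GB45715 on chromosome 5 was a gene of testes and semen too, with 78 and 57 counts against 0 in ovaries, 1 in eggs and 5 in spermatheca. Its opposite gene GB45659 had 23 sense counts in testes, 41 in semen and 4 in spermatheca, fewer than the antisense counts of GB45715 in each of these tissues. GB45715 also had 11 own sense counts in semen, where 4 or fewer were found in each other tissue.

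The next 7 genes by semen count differed in how far the other tissues lay below. GB49806 had 46 antisense counts in semen with 62 in testes and 32 in spermatheca, and GB54716 had 32 with 23 and 7. Both overlap no gene on the other strand. GB47319 had 36 in semen but 34 to 78 in the other tissues, and GB53048 had 31 with 34 to 65. These were even profiles before scaling, and with unscaled counts neither gene was highest in semen. GB47788 had 30 counts in semen and 90 in testes against 7 to 15 elsewhere. GB55783, of 92821 bp on chromosome 3, had 32 in semen against 2 in ovaries, 7 in eggs, 4 in testes and 4 in spermatheca, and its semen share was 96.4 times that of testes (34.2 to 375). The seventh of these genes, GB49925, had 39 in semen and is described with the TEs.

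A small group of genes was nearly empty outside semen. GB45855 on chromosome 1 (11723515 to 11726040, plus strand) had 23 antisense counts in semen (exact Poisson interval, 14.6 to 34.5) and 0 in each other tissue. The antisense sums of those columns were 12.1 to 155 times larger, and their TMM scales 1.95 to 2.79 times larger. Its semen share was at least 92.4-fold above that of testes, and it overlaps no opposite-strand gene and no TE. Its own strand carried 4 counts in testes, 1 in semen and 5 in spermatheca. GB52755 on chromosome 14 had 11 in semen, 1 in testes and 0 in the rest, at least 44.2-fold above testes, again with neither an opposite-strand gene nor a TE. GB51247 on chromosome 16 had 19 in semen, 3 in testes, 3 in spermatheca and 0 in ovaries and eggs, with 0 sense counts in semen but 13 to 32 in the other tissues. The semen sense column is shallow by its sum: 3 counts in it are a share of 0.00256%. That is above the sense share of GB51247 in ovaries, eggs and testes, so by column sums no difference was detectable there. The TMM sense scales of those 3 columns were 1.87, 2.26 and 2.68 times that of semen, so this limit holds for column sums and not for TMM.

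GB44030 on chromosome 4 had 21 antisense counts in semen and 0 to 5 elsewhere. GB48481 on chromosome 14 had 12 in semen, 3 in spermatheca, 1 in eggs and 0 in ovaries and testes. It was the member with the most semen sense counts, 36, and its sense counts were 194 in ovaries, 220 in eggs, 8 in testes and 85 in spermatheca. The sense strand of GB48481 was therefore the stronger in all 5 columns, and its place among the 72 genes rests on the minor strand. GB41240 (15 in semen and 0 to 7 elsewhere), GB42188 (13 and 3 to 6) and GB50867 (11 and 0 to 2) complete the 9 genes over 5-fold higher in semen than in all other tissues under 3 scalings. Under all 4 scalings, GB45855 and GB51247 alone were over that fold. With unscaled counts, genes of 15 or fewer semen counts could not pass, since counts under 3 were set to 3. This barred GB41240, GB42188, GB48481, GB50867 and GB52755 in advance. Genes other than those of the naming rule, among them GB41240, GB42188 and GB50867, were chosen after their values were seen.

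**Figure D4:**
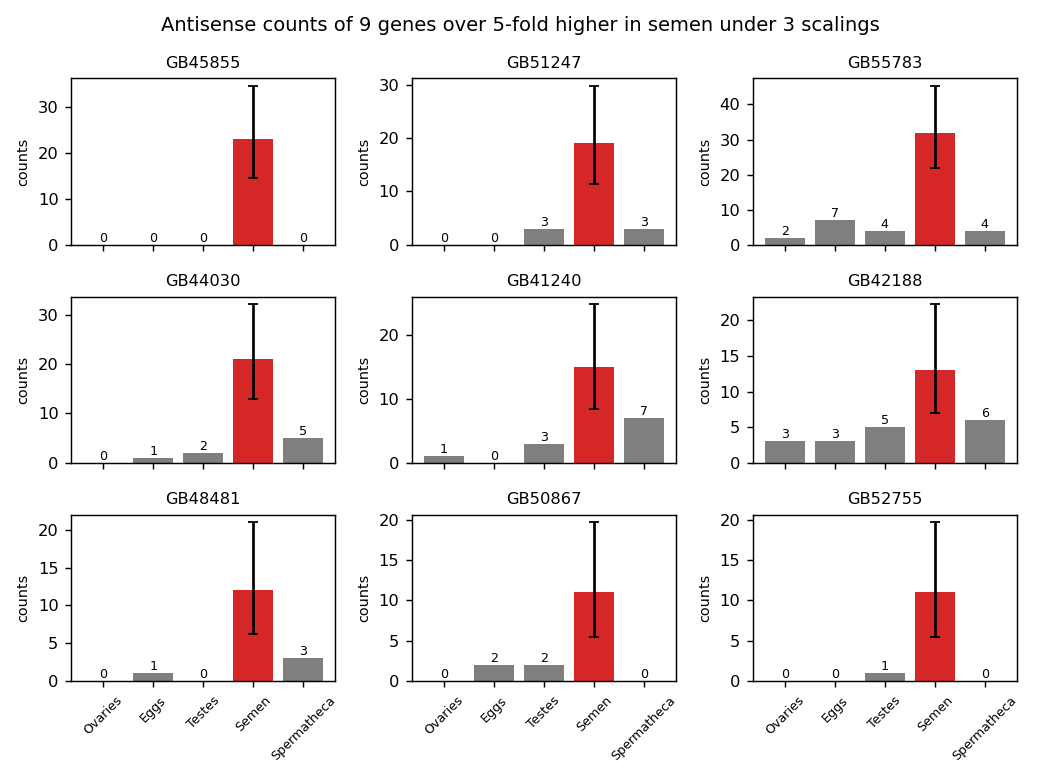
Antisense counts in the 5 tissues of the 9 genes over 5-fold higher in semen than in each other tissue with column sums, TMM and DESeq2 size factors. Red bars are semen with exact 95% Poisson intervals, and grey bars are the other tissues, which reach at most 7 counts.

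The smallest leads belonged to GB42427, GB49925 and GB43862, whose semen shares were 1.19 (0.687 to 1.93), 1.28 (0.894 to 1.78) and 1.47 (0.685 to 2.80) times those of the next tissue. The intervals of these 3 genes include 1. Just outside lay GB54483 with 18 semen counts and a ratio of 0.969 to its highest other tissue, GB46526 with 39 and 0.962, and GB53645 with 12 and 0.851. At the lower count limit, 7 members had exactly 10 semen counts. A further 17 genes had 9, and 12 of those had their highest share in semen. The exact Poisson interval of 10 counts, 4.795 to 18.4, includes 9, so the limit does not separate genes with 10 counts from genes with 9.

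Many of these genes overlapped a gene on the other strand. This was found for 50 of the 72 (69.4%), against 21.8% of all genes and 59.2% of the genes with at least 10 semen counts. By length, 22 of the 25 members of up to 10 kb (88%) overlapped an opposite gene, against 20.5% of all genes of that length and 2 of the 16 other genes with at least 10 semen counts. Of the 47 longer members 28 did (59.6%), against 29.3% of all longer genes and 9 of 15 others, and the part of length was not tested. The sense counts of the overlapping genes reached 80% or more of the member's semen antisense counts for 32 genes (44.4%). The same held for 32.3% of the 1922 genes with any semen antisense count and for 22.6% of the 31 other genes with at least 10. For 22 members with antisense counts in all 5 tissues it held in each of them. The same was not counted over all genes, so nothing was read from this number. Of these 32 genes, 31 shared 825 bp or more with the opposite gene that had the most semen sense counts, and the exception, GB55783, shared 31 bp with it. The sense counts of opposite genes could together hold at most 1513 of the 2868 semen counts (52.8%), since their reads may also lie outside the overlap. Without overlaps under 100 bp, a limit chosen after seeing the data, these numbers were 31 genes and 1480 counts (51.6%).

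**Figure D5:**
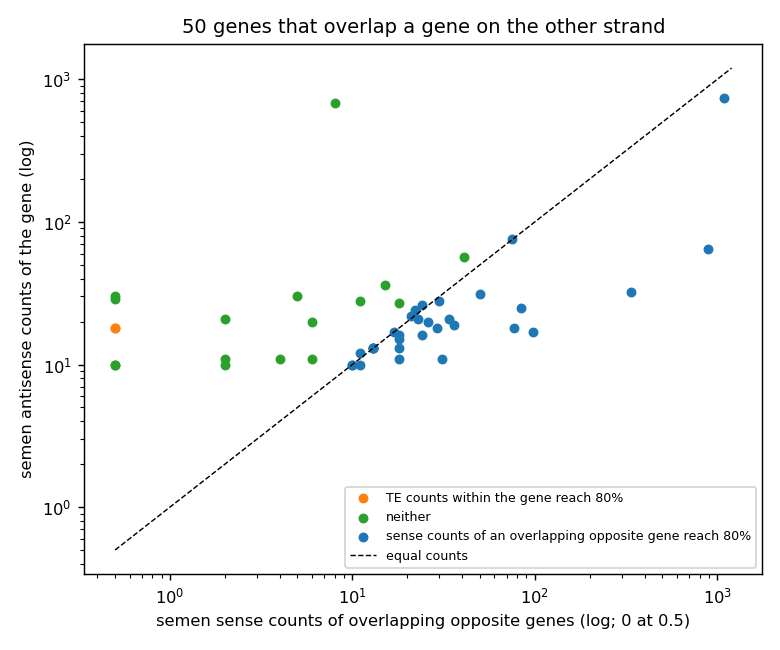
Semen antisense counts of the 50 genes that overlap a gene on the other strand against the summed semen sense counts of those opposite genes, both on log scales. The 32 genes in blue lie near or to the right of the line of equal counts, and GB49775, at 687 against 8, lies farthest to its left.

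For some members the antisense counts and the neighbour's sense counts were equal or close. GB45183 on chromosome 11 had 17, 78, 52, 17 and 32 antisense counts in ovaries, eggs, testes, semen and spermatheca, and GB44987 on the other strand had exactly these sense counts. GB44188 on chromosome 4 had 2, 7, 6, 10 and 23 antisense counts beside 2, 7, 7, 10 and 24 sense counts of GB44033, within 1 count in every tissue. GB55432 and GB55586 on chromosome 2 are both members and overlap each other by 6407 bp. GB55586 had 20, 25, 15, 13 and 31 antisense counts where GB55432 had 20, 25, 11, 13 and 30 sense counts. GB55432 in turn had 14, 16, 20, 11 and 39 antisense counts where GB55586 had 14, 19, 32, 18 and 42 sense counts. The second direction was the looser match, and from these tables the semen counts cannot be assigned to either gene.

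GB45690 had 13, 18, 20, 28 and 3 antisense counts beside 14, 22, 27, 30 and 4 sense counts of GB45673, so that semen was highest and spermatheca lowest for both. GB40061, of 122225 bp, had 8, 9, 8, 24 and 247 beside 7, 4, 2, 22 and 225 of GB40157, with spermatheca far above the rest. GB43862 had 79, 8, 77, 10 and 116 beside 71, 8, 69, 9 and 104 of GB43870, and eggs and semen were its low columns. GB50867 lies wholly within the overlap with GB50864, whose sense counts were 31 in semen and 1 to 4 elsewhere.

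In GB55783, the opposite gene GB55813 had 336 sense counts in semen, 1 in testes and 0 in the other tissues, but the genes share only 31 bp. The 32 semen antisense counts of GB55783 can therefore hold few reads of GB55813 unless these crowd into that end, and the positions of reads were not analysed here. GB44030 shares 14 bp with GB44191, which had 398 sense counts in testes and 2 in semen, the reverse of GB44030 itself.

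Only 3 of the 72 genes carry a name in the RefSeq gene table, and opposite genes could hold the semen counts of each. GB43092 (Cdk5, a cyclin-dependent kinase known for its work in neurons) on chromosome 11 had 4 antisense counts in ovaries, 2 in eggs, 9 in testes, 13 in semen and 16 in spermatheca. Its neighbour GB43226 had 4, 2, 6, 13 and 14 sense counts. GB43163 (NFRKB, in mammals a part of the INO80 chromatin remodelling complex) on chromosome 11 had 3, 7, 20, 21 and 26 antisense counts beside 6, 10, 25, 34 and 29 sense counts of GB43168. GB40671 (Fstl5, a follistatin-like protein) on chromosome 12 had 6, 9, 10, 13 and 13 beside 15, 37, 127, 18 and 163 of GB40657. In none of these 3 genes was semen above every other column by count, and the semen share was 13.8 (6.12 to 30.6), 12.7 (6.53 to 24.6) and 15.7 (6.35 to 39.9) times that of the next tissue.

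TEs touched 50 of the 72 genes (69.4%), against 31.7% of all genes and 25 of the 31 other genes with at least 10 semen counts (80.7%). Length moved with this too: 43 of the 47 members over 10 kb (91.5%) touched a TE, as did 78.0% of all genes over 10 kb. Few of the semen antisense counts could lie on these elements. TEs wholly within members had at most 130 of the semen counts (4.53%) on the strand in question, and in 5 members they could hold 80% or more. With TEs that share at least 1 base, the number was 169. GB55742 had 60 semen counts on such TEs beside 10 antisense counts of its own, and is not among the 5. These numbers were not counted over all genes.

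GB49925 had 286 antisense counts in ovaries, 144 in eggs, 368 in testes, 39 in semen and 445 in spermatheca. A single element of the LARD class, a kind of large retrotransposon derivative, held 15, 63, 356, 37 and 432 counts of the same strand in these tissues. Nearly all counts of GB49925 in testes, semen and spermatheca could thus be those of 1 element within a gene of 186218 bp, while most counts in ovaries and eggs lay elsewhere. GB42427 had 7, 65, 183, 18 and 203 counts, of which a LARD element could hold 6, 60, 165, 18 and 188. GB53557 had 13, 26, 161, 20 and 158, of which 7, 22, 125, 19 and 146 could lie on 1 element annotated as a potential host gene. The semen shares of these 3 genes were 1.19 to 1.498 times those of testes.

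In the other 2, GB46759 and GB48229, the semen share was 13.6 and 6.78 times that of testes. GB46759 had 4, 6, 16, 18 and 7 counts, and a LARD element within it had 2, 1, 4, 16 and 2, so that semen was the high column of the element. GB48229 had 0, 1, 32, 18 and 18 counts, so that testes was its high column by count. Of these, 14 and 4 in semen and 25 and 5 in testes could lie on 2 elements. The median ratio of the semen share to the next tissue was 1.498 over the 5 TE members and 8.81 over the 35 members of neither kind. It was 7.47 over the 32 members whose opposite genes could hold 80% or more of the semen counts. Those 35 held 1355 semen counts, 687 of them on GB49775, and 16 of them overlapped an opposite gene with too few sense counts.

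Sense counts on the members were somewhat below the antisense counts in ovaries and eggs, and far below them in testes, semen and spermatheca. Sense totals over the 72 genes were 1492 in ovaries, 1465 in eggs, 1279 in testes, 263 in semen and 1322 in spermatheca. Antisense reads made up 91.6% of both strands in semen (Wilson interval, 90.6 to 92.5), 86.6% in testes, 86.2% in spermatheca, 55.2% in eggs and 52.0% in ovaries. Over all genes the antisense percentages were 21.7 in semen, 41.2 in testes, 39.1 in spermatheca, 48.0 in eggs and 50.1 in ovaries. The members were chosen for antisense counts in semen, so the semen value follows from the choice. Without the member with the most counts, testes fell to 67.1% and spermatheca to 75.3%, while semen stayed at 89.0%.

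In semen, 20 members had no sense count, and 6 had more sense than antisense counts. Besides GB48481, the members with the most semen sense counts were GB52601 with 19, GB55586 with 18, GB55715 with 17 and GB55432 with 13. GB52601 had 14 to 39 sense counts in the other tissues and 11 antisense counts in semen. GB55715, which overlaps no opposite gene, had 58, 21, 57, 17 and 43 sense counts and 8, 5, 15, 15 and 8 antisense counts. Its strands were thus about even in semen and uneven in the 4 other tissues.

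The sense share was highest in semen for 25 of the 70 members with any sense count (35.7%), against 30.9% of all genes, which is near the background. It was highest in testes for 26 (37.1%, against 38.4% of all genes), in spermatheca for 16 (22.9%, against 23.2%), in ovaries for 3 (4.29%, against 4.70%) and in eggs for none (against 2.79%). With TMM the number in semen was 14 (against 15.1% of all genes) and with DESeq2 size factors 16 (against 17.3%). Among genes with at least 10 sense counts over the other 4 tissues, the share was 35.2% of members and 35.5% of all genes.

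The members were long genes. Their median length was 19.0 kb, against 2.65 kb for all genes and 9.55 kb for the 31 other genes with at least 10 semen counts. They ranged from 1.89 to 207 kb, and 15 (20.8%) exceeded 100 kb, against 0.986% of all genes and 16.1% of those 31. Counts were taken over whole genes, introns included, so a longer gene collects more reads, and the part of length in the list was not tested. Per length, the semen counts ran from 0.0482 to 169 per kb, with a median of 0.897. GB40424 had the highest density.

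The genes were spread over 15 of the 16 chromosomes, with 33 on the plus and 39 on the minus strand. Unplaced scaffolds held 2 of them (2.78%), against 13.3% of all genes and 11 of the 31 other genes with at least 10 semen counts (35.5%). The latter group includes the 5 omitted genes that met the rule. There were 4 pairs of members within 50 kb of each other. The closest pair that did not overlap was GB51325 and GB51326 on the plus strand of chromosome 16, 1425 bp apart. GB51326 had 1, 0, 2, 14 and 10 antisense counts and GB51325 had 1, 0, 3, 10 and 53, so both had few counts outside semen and spermatheca.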

How the data were processed

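The deposited gene and TE tables hold read counts, 1 column per tissue, sense and antisense. The authors mapped reads to Amel 4.5 with CLC Genomics Workbench (Bowtie 1.2.3 is also in the submitters' processing notes), removed other known RNAs and reads outside 26 to 31 nt, and counted reads over whole genes and TEs with featureCounts. How libraries were pooled and how multiply mapped or overlapping reads were counted is not given in the sources used here. The study's methods describe semen of 3 colonies, and the labels list 2 semen libraries. The methods also give 2 testes libraries per time point, and the labels list 3 at 24 h, 2 at 72 h and 3 at 144 h.

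Shares were counts divided by column sums. TMM factors came from edgeR 4.0.16 and size factors from DESeq2 1.42.0 (R 4.3.3). Other steps used Python 3.11.15, pandas 2.3.3 and SciPy 1.17.1. Ratio and Wilson intervals were at 95%, and the fold calculation was tested on simulated data. With 1 column per tissue no model was fitted. Overlaps of at least 1 base were found from the tables' coordinates. Column sums, scalings, count minimums, pseudocounts, overlap limits and left-out tissues were varied.

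Members and lists were chosen with earlier results of these data known. Genes named were the 12 with the most semen antisense counts, the 5 with the largest ratio to the next tissue (0.5 counts added), the 5 with the most semen sense counts and the 3 on either side of the share limit. Ranks around the list limit could not be named, since it was not reached. Functional lists could not be applied: 58 members matched the RefSeq table (assembly Amel_HAv3.1), which names 3. Sequences were not analysed here.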

Additional observations from a re-analysis of the deposited data

How the results depend on the processing

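No paired analysis was possible because the columns are pooled per tissue and carry no replicate numbers, and for the same reason no replicate could be left out. Of 60 alternative settings, 21 were labelled as leaving the result in place and 39 as moving it. These labels are coarse: 54 genes highest in semen with DESeq2 size factors, for 72, were labelled as in place. An antisense percentage of 89.0 in semen, for 91.6, was labelled as moved. Leaving out a tissue with column sums could not change the 72, since a gene highest in semen over all tissues stays so. The number of genes highest in semen, 72 with column sums, was 45 with TMM and 21 with unscaled counts, and 45, 46 and 46 with TMM without ovaries, eggs and testes, but 56 without spermatheca (chosen after seeing the data). The list itself held 150 genes at a minimum of 5 semen counts, 29 at 20, 150 without a minimum, and 45 with TMM. All 45 were members by construction, since relative to semen TMM divides each other column by less than column sums do. Nothing was read from that overlap. Members with the highest sense share in semen, 25 with column sums, were 14 with TMM, 16 with DESeq2 size factors and 12 with at least 10 sense counts in a tissue. The median ratio of the semen sense share to the next tissue was 0.957 with 0.5 counts added, below the next tissue, but 1.23 with 1 count added and 1.88 with 3, so its direction turned. An added count raises the share most in semen, the column with the smallest sum, so nothing was read from this turn. Antisense percentages without the member with the most counts were 64.2 in ovaries, 63.3 in eggs, 67.1 in testes, 89.0 in semen and 75.3 in spermatheca, and medians over members were 64.5 in ovaries, 66.7 in eggs, 73.9 in testes and 69.2 in spermatheca. Genes over 5-fold higher in semen with TMM, DESeq2 size factors and unscaled counts were 41, 41 and 15 against ovaries, 37, 36 and 12 against eggs, 23, 30 and 5 against testes, 19, 24 and 5 against spermatheca, and 9, 12 and 2 against all 4. The scaling values differ by construction: semen was scaled against testes by 12.1 with column sums and by 2.79 with TMM. Other causes were not tested. A gene with no semen count could still have a semen share of 0.00922%, the limit set by 3 counts, and 43 of the 72 genes had under 20 semen counts.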
